A study of Homo sapiens with 2 samples.

Results

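The 10 genes described here are the epidermal growth factor (EGF) receptor EGFR, its relatives ERBB2 and ERBB3, the 6 ligand genes AREG, EREG, TGFA, HBEGF, BTC and EGF, and the feedback inhibitor ERRFI1. They were taken from both count tables by Ensembl identifier, named through GENCODE release 44, and make up 10 of the 58735 genes listed. MCF10a is a non-tumorigenic human mammary epithelial line, and MCF10a-Snail-ER cells carry in addition a stable fusion of the transcription factor Snail with the estrogen receptor. The cells of both libraries were harvested after 1 day of 100 nM tamoxifen, given to begin an epithelial-to-mesenchymal transition. Their medium held 20 ng/ml EGF, 5% horse serum, 0.5 µg/ml hydrocortisone, 100 ng/ml cholera toxin, 10 µg/ml insulin, glutamine and antibiotics. Polyadenylated RNA described as matched went into 1 Nanopore direct RNA library, which reads native RNA strands, and 1 Illumina TruSeq stranded mRNA library, which reads amplified cDNA of fragmented RNA. No untreated library was analysed here, so no value below is an effect of tamoxifen, of Snail or of EGF, and the only comparison is between the libraries.

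EGFR, ERBB2, ERBB3 and ERBB4 are receptor tyrosine kinases that act in pairs at the cell surface. Ligands of the EGF family are made as membrane-bound precursors, are released by metalloproteases such as ADAM17, and bring the receptors together so that they phosphorylate one another and signal through RAS-ERK and PI3K-AKT. ERBB2 binds no known ligand and serves as a partner, ERBB3 has little kinase activity of its own, and ERRFI1 encodes a cytoplasmic protein that binds the EGFR kinase domain and inhibits it. Mammary epithelial cells depend on this pathway for growth, and MCF10a cells are kept in added EGF.

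Depth differed 475.5-fold: 403235 counts in all by Nanopore, 191741714 by Illumina. Levels are in CPM, counts per 1000000 counts of the library. A single count is worth 2.48 CPM by Nanopore but 0.00522 by Illumina. A count of 0 is taken here to allow up to 3 counts, 7.44 CPM by Nanopore against 0.0156 by Illumina. The upper end of the 95% exact Poisson interval for 0 counts is higher, at 9.15 CPM by Nanopore and 0.0192 by Illumina. Intervals printed with a level are 95% exact Poisson intervals, and those of ratios and shares are 95% exact binomial (Clopper-Pearson) intervals. They cover counting error only, since there was 1 library per platform and since PCR copies of 1 molecule may be read more than once. The basal keratins KRT5, KRT14 and KRT17 stood at 1686, 798.5 and 533.2 CPM by Nanopore and at 1447, 611.3 and 289.6 CPM by Illumina. The luminal keratins KRT8 and KRT18 stood at 389.4 and 280.2 CPM by Nanopore and at 209 and 321.8 CPM by Illumina. The basal marker ITGB4 stood at 136.4 CPM by Nanopore and 212.5 by Illumina. The remaining basal and luminal markers were lower: TP63, CDH1, EPCAM and KRT19 had 5, 3, 3 and 1 Nanopore counts and 33.2, 24.2, 4.02 and 0.459 CPM by Illumina. Of the mature luminal markers, ESR1 stood at 964.7 CPM by Nanopore and 143.3 by Illumina, GATA3 at 9.92 and 12.9, and PGR at 0 in both. How much of the ESR1 level comes from the estrogen receptor fusion was not tested. Some defining markers of other cell types were at or near 0: PTPRC, CDH5 and VWF had no Nanopore count and at most 11 Illumina counts, and CD3E and ADIPOQ had 0 in both. Above 1 CPM by Illumina among the fibroblast, endothelial, leukocyte and adipocyte markers were PECAM1, at 5.08, COL1A1, at 4.93, and CD14, at 10.9. By Illumina CPM, which depends on gene length, all were above KRT19 and EPCAM. Scaled per union exonic length (TPM, transcripts per 1000000), EPCAM, at 4.476, was above PECAM1, at 1.775, and COL1A1, at 1.484. CD14 was still above EPCAM on that scale, and all stayed above KRT19, at 0.5321. PECAM1 and COL1A1 had no Nanopore count, and CD14 had 5. In bulk RNA, fewer cells with an mRNA and less of it per cell cannot be told apart.

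The 10 genes together held 169 Nanopore counts, or 419 CPM (358 to 487), and 100582 Illumina counts, or 524.6 CPM (521.3 to 527.8). Illumina detected all 10 and Nanopore detected 7, with EREG, BTC and EGF at 0. In both libraries AREG, EGFR and ERRFI1 were the 3 genes with the highest counts, and ERBB2 came next. Of the remaining 6, none had over 3 Nanopore counts, and TGFA was the highest by Illumina, at 30.1 CPM. The plot of levels by gene shows these levels and the wide Nanopore intervals of the genes with 3 counts.

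**Figure D1:**
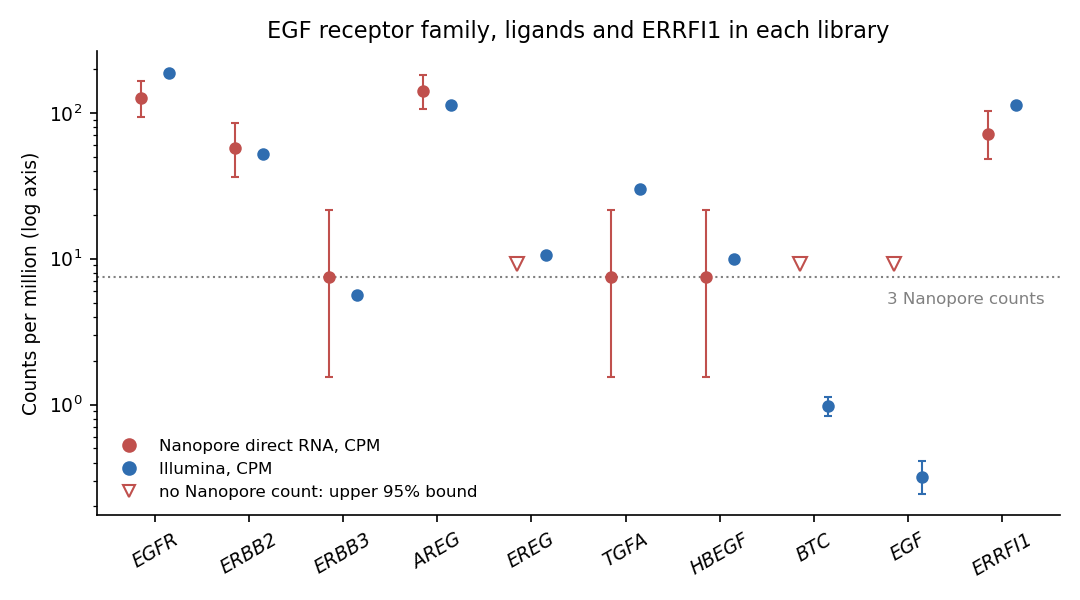
Level of each of the 10 genes in CPM on a log axis, with 95% exact Poisson intervals, Nanopore in red and Illumina in blue; open triangles are the upper bound for genes with no Nanopore count, and the dotted line marks 3 Nanopore counts. EGFR, ERBB2, AREG and ERRFI1 lie above 50 CPM in both libraries, and BTC and EGF lie at or below 1 CPM by Illumina.

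EGFR was the most abundant of the 3 receptors. It had 51 Nanopore counts, 126.5 CPM (94.2 to 166), and 36245 Illumina counts, 189 CPM (187 to 191). The gene (ENSG00000146648) lies on chromosome 7, 55019017 to 55211628 on the plus strand of hg38, with 28 exons and 9905 bases in its canonical transcript. By CPM it ranked 1182nd among the 15660 genes detected by Nanopore and 874th among the 27323 detected by Illumina. Scaled per exonic length (TPM, transcripts per 1000000, over the union of annotated exons), the Illumina level was 32.1 TPM, which ranked 3671st.

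ERBB2 (ENSG00000141736, chromosome 17, 39687914 to 39730426) had 23 Nanopore counts, 57.04 CPM (36.2 to 85.6). By Illumina it had 9961 counts, 51.95 CPM (50.93 to 52.98) and 13.6 TPM. ERBB3 (ENSG00000065361, chromosome 12, 56076799 to 56103505) had 3 Nanopore counts, 7.44 CPM (1.53 to 21.7), and 1074 Illumina counts, 5.60 CPM (5.27 to 5.95) and 1.30 TPM. ERBB3 was thus detected in both libraries and was the lowest of the 3 receptors in each.

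Of the counts of these 3 receptors, EGFR held 66.2% by Nanopore (54.6 to 76.6%), ERBB2 29.9% (19.97 to 41.4%) and ERBB3 3.90% (0.811 to 10.97%). By Illumina counts the shares were 76.66%, 21.1% and 2.27%, that of EGFR at the upper end of its Nanopore interval (76.62%) and just outside it. The Illumina shares depend on length, since all 3 genes differ in it: per union exonic length EGFR held 68.3%, ERBB2 29.0% and ERBB3 2.75%. With canonical transcript length the shares were 60.6%, 36.2% and 3.17%. Each of these per-length Illumina shares lay inside the Nanopore interval of the same receptor. ERBB4, the fourth receptor of the family, had 0 counts in both libraries, which allows at most 0.0156 CPM by Illumina.

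Amphiregulin, encoded by AREG, was the most abundant ligand. AREG (ENSG00000109321, chromosome 4, 74445136 to 74455005) had 57 Nanopore counts, 141 CPM (107 to 183), and 21583 Illumina counts, 112.6 CPM (111.1 to 114.1). Its transcripts are the shortest of the 10, with 1642 bases of union exonic length and 1234 in the canonical transcript. Its Illumina level per union exonic length was 185.7 TPM, the highest of the 10, which ranked 687th of all detected genes, and per canonical transcript length it was 141.4 TPM. AREG held 90.5% (80.4 to 96.4%) of the 63 Nanopore counts of the 6 ligands. Its share of their Illumina level was 68.4% by counts, 85.4% per union exonic length and 74.0% per mean transcript length.

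The other ligands were at or below 3 Nanopore counts. TGFA, which encodes transforming growth factor alpha (ENSG00000163235, chromosome 2, 70447284 to 70554193), had 3 Nanopore counts, 7.44 CPM (1.53 to 21.7). By Illumina it had 5779 counts, 30.1 CPM (29.4 to 30.9) and 16.6 TPM, the second of the 6 ligands. HBEGF, which encodes heparin-binding EGF (ENSG00000113070, chromosome 5, 140332843 to 140346603), also had 3 Nanopore counts, with 1920 Illumina counts, 10.0 CPM (9.57 to 10.5) and 9.07 TPM. Nanopore at this depth did not separate these ligands from each other or from ERBB3.

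EREG, the epiregulin gene (ENSG00000124882, chromosome 4, 74365145 to 74388749), had no Nanopore count, which allows 7.44 CPM, and 2018 Illumina counts, 10.5 CPM (10.1 to 10.99) and 4.99 TPM. BTC, the betacellulin gene (ENSG00000174808, chromosome 4, 74744759 to 74794523), had no Nanopore count and 186 Illumina counts, 0.970 CPM (0.836 to 1.12). EGF itself (ENSG00000138798, chromosome 4, 109912883 to 110013766) had no Nanopore count and 61 Illumina counts, 0.318 CPM (0.243 to 0.409) and 0.113 TPM. In these cells, grown in added EGF, the mRNA of EGF was the lowest of the 10 and that of BTC the next lowest by Illumina.

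ERRFI1, the feedback inhibitor (ENSG00000116285, chromosome 1, 8004404 to 8026309), had 29 Nanopore counts, 71.9 CPM (48.2 to 103), and 21755 Illumina counts, 113.5 CPM (112 to 115). Its Illumina level per union exonic length was 73.5 TPM, the second of the 10 after AREG and above EGFR.

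The order of levels was compared per molecule: by Nanopore CPM, where a strand in principle gives 1 count whatever its length, and by Illumina TPM. Whether long and short strands were counted equally here was not tested. By Nanopore it was AREG, EGFR, ERRFI1 and ERBB2, then ERBB3, HBEGF and TGFA together at 3 counts. AREG and EGFR did not differ beyond counting error (ratio 1.12, interval 0.752 to 1.66), nor did ERRFI1 and ERBB2 (1.26, 0.704 to 2.28). EGFR exceeded ERRFI1 by 1.76-fold (1.09 to 2.88) and ERBB2 exceeded ERBB3 by 7.67-fold (2.32 to 39.9).

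By Illumina TPM over union exonic length the order was AREG, ERRFI1, EGFR, TGFA, ERBB2, HBEGF, EREG, ERBB3, BTC and EGF. The counting interval of each of the 9 neighbouring pairs excluded a ratio of 1. The choice of length was a larger source of change than counting: with canonical transcript length ERBB2, at 17.7 TPM, stood above TGFA, at 11.3 TPM. On these scales EGFR and ERRFI1 stood in opposite order, EGFR above by Nanopore and ERRFI1 2.29-fold above (2.25 to 2.33) by Illumina TPM. By Illumina CPM EGFR, at 189, was above ERRFI1, at 113.5, as it was by Nanopore. The reversal thus came with the division by length.

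EPGN, EREG, AREG and BTC lie within 486 kb of chromosome 4, from 74308470 to 74794523, and EPGN encodes a further EGFR ligand, epigen. The 4 genes differed widely in level, as the map of the cluster shows. EPGN, with its start at -136.7 kb from that of AREG, had 9 Nanopore counts, 22.3 CPM, and 4904 Illumina counts, 25.6 CPM and 21.0 TPM. By Illumina TPM it was thus above TGFA, HBEGF, EREG, BTC and EGF. With EPGN included AREG held 79.2% (68.0 to 87.8%) of the Nanopore counts of 7 ligands. The only other annotated genes listed in this interval are a pair of lncRNA genes, with 1 and 0 Nanopore and 0 and 16 Illumina counts.

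**Figure D2:**
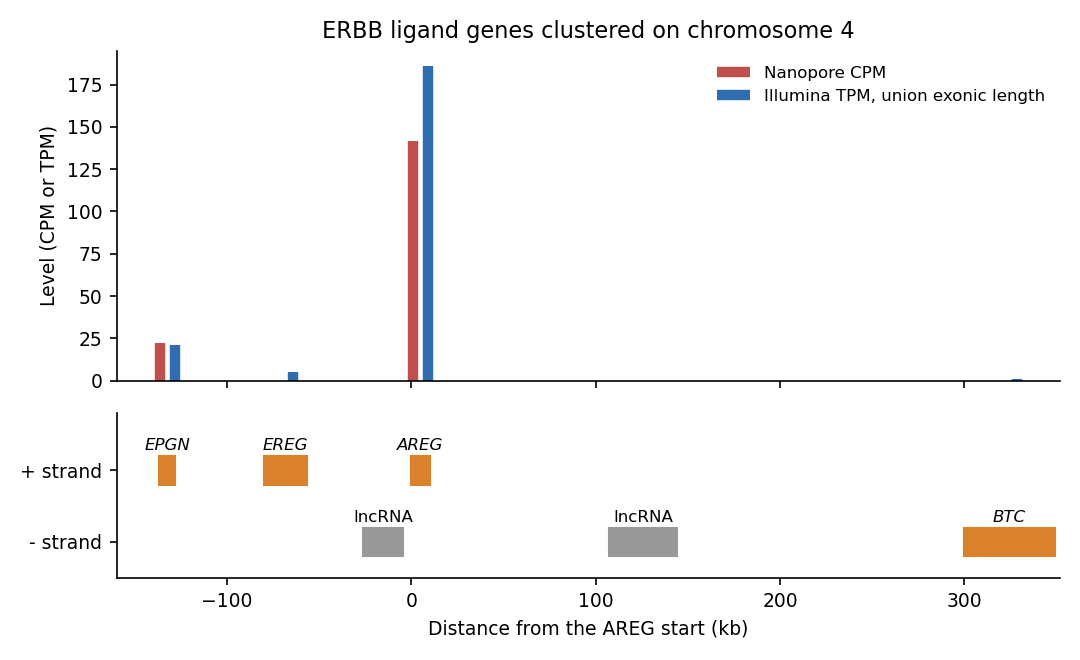
The 4 ligand genes and 2 lncRNA genes of the chromosome 4 cluster by distance from the AREG start in kb (lower panel, by strand), with the level of each ligand gene above it, Nanopore CPM in red and Illumina TPM over union exonic length in blue. AREG is at 141 CPM and 185.7 TPM, and its neighbour EREG at 0 CPM and 4.99 TPM.

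Sequence upstream of the most abundant ligand, of its low neighbour EREG and of the most abundant receptor is shown to give the context of these 3 levels; the libraries measure no binding or promoter activity. Each run is the 250 bases before the RefSeq transcription start (GRCh38.p14), 5′ to 3′ on the strand of the gene. They lie at chr4:74444886-74445135, chr4:74364895-74365144 and chr7:55018767-55019016, all on the plus strand. Capitals mark 4 motifs, searched on both strands: the cAMP response element TGACGTCA, the E-box CAGGTG that Snail can bind, the TATA box TATAAA and the GC box GGGCGG. On the opposite strand the E-box reads CACCTG, the TATA box TTTATA and the GC box CCGCCC.
AREG: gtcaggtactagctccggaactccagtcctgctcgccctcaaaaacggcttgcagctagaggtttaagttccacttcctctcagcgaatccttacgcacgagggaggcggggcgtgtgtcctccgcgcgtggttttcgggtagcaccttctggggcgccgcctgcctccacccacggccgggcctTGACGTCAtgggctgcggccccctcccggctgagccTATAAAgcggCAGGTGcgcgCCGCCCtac
EREG: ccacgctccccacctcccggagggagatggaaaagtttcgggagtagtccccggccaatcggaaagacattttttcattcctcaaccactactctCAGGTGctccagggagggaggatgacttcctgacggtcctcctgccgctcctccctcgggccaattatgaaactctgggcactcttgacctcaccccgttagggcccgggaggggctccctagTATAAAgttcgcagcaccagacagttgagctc
EGFR: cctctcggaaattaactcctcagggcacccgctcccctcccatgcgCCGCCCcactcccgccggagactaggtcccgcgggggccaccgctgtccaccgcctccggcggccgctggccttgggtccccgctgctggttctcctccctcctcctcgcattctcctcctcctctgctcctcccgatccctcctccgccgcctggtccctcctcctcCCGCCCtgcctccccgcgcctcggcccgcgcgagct
AREG carried TGACGTCA, starting 65 bases before the transcription start, a TATA box 29 bases before it, an E-box 19 bases before it and a GC box 9 bases before it. EREG carried an E-box at 155 bases and a TATA box at 32 bases. The EGFR sequence, that of the first of its 2 listed starts, carried GC boxes at 204 and 36 bases and none of the other 3 motifs. At the second EGFR start, not printed, TATA boxes lay at 146 and 36 bases and AP-1 sites (TGANTCA, the element bound by FOS and JUN proteins) at 232 and 136 bases. AP-1 sites, searched as a further motif and present in 6.57% of the 35116 promoters of this length in the RefSeq table, were not found in the 3 printed sequences. The GC content of the printed EGFR sequence was 73.6%, against 65.2% for AREG and 58.0% for EREG. Among those 35116 promoters TGACGTCA was present in 1.65%, the E-box in 17.5%, the TATA box in 10.7% and the GC box in 42.6%. Some genes have more than 1 promoter in that table, and a match is not evidence that a factor binds there.

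The libraries were then compared gene by gene. The ratio used is that of Nanopore to Illumina on a log2 scale, after adding 1 to each CPM, while folds printed with an interval are ratios with nothing added. All 12414 genes whose mean reached 5 CPM were tested on their counts by an exact binomial test, two-sided and conditional on the library totals, with Benjamini-Hochberg adjustment over all of them. That test compares these 2 libraries, not the platforms. Of the 10 genes, 8 passed the minimum, and BTC and EGF did not. The 8 ratios ranged from -3.53 to 0.35 with a median of -0.48, or -0.42 with EREG set to 3 counts, and the median of all genes tested was -0.42.

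At least 2-fold higher by Illumina were 2 of the 8, TGFA and EREG, where 30.2% of all genes tested were. None of the 8 was at least 2-fold higher by Nanopore, where 19.2% of all genes tested were. By the exact test, EGFR, TGFA and ERRFI1 were higher by Illumina at an adjusted p under the threshold of 0.05, 3 of 8 against 27.2% of all genes tested, and none of the 8 was higher by Nanopore, against 20.2%. The count of 2 for the fold rests in part on the minimum and on the pseudocount. EREG, with no Nanopore count, passed the minimum of 5 CPM only through its Illumina level, so its call was fixed by that filter. The same holds for any gene without a Nanopore count among the 30.2%. With EREG set to 3 Nanopore counts, a setting chosen after the data were seen, its Illumina level was 1.41-fold higher and only TGFA was past 2-fold. At its count of 0, the lower end of the exact interval for that fold was 1.15.

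TGFA had the largest ratio between the libraries among the 7 genes with a Nanopore count. At its share of the Illumina counts, 12.2 Nanopore counts would correspond to its level, and 3 were seen. Its Illumina CPM was 4.05 times its Nanopore CPM (1.39 to 19.7). Its log2 ratio with 1 added to each CPM was -1.88, and the exact binomial adjusted p was 0.0108. EREG had 0 Nanopore counts where its Illumina share would correspond to 4.24, with an exact binomial adjusted p of 0.0594.

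For EGFR, 51 Nanopore counts were seen where its Illumina share would correspond to 76.2. Its Illumina CPM was 1.495 times its Nanopore CPM (1.14 to 2.01), with a log2 ratio of -0.58 (exact binomial adjusted p 0.00778), which became 0.0521 with median-ratio scaling. ERRFI1 had 29 counts against 45.7, an Illumina CPM 1.58 times the Nanopore CPM (1.10 to 2.36) and a log2 ratio of -0.65. Its exact binomial adjusted p of 0.0257 became 0.0651 with scaling by trimmed mean (TMM), so that call depended on how the libraries were scaled.

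No difference was detectable for the other 4. AREG had 57 Nanopore counts against 45.4 at its Illumina share, a CPM ratio of Nanopore over Illumina of 1.26 (0.951 to 1.63). For ERBB2 the ratio was 1.10 (0.696 to 1.65), with 23 counts against 20.95. ERBB3 and HBEGF, each at 3 Nanopore counts, had ratios of 1.33 (0.274 to 3.89) and 0.743 (0.153 to 2.18). By the exact binomial test their adjusted p lay between 0.182 for AREG and 0.939 for HBEGF, and the intervals of ERBB3 and HBEGF include differences of over 2-fold in either direction.

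Gene length moved with these ratios. A fragmented library gives more reads to a longer transcript, and a direct RNA library in principle gives 1 read per strand. The tested genes were placed in 5 groups of about equal size by union exonic length. In the shortest group, 53 to 2236 bases, which holds AREG (1642 bases), the median log2 ratio was 1.21. In the group from 3967 to 5832 bases, which holds EREG, TGFA and ERRFI1, it was -0.58, and in the longest, from 8628 bases, which holds EGFR, ERBB2 and ERBB3, it was -0.91. AREG thus lay below the median of its length group and the 3 receptors above theirs, as the plot of ratio against length shows. AREG, at 0.33, and EGFR, at -0.58, still lay between the quartiles of their groups, -0.03 to 3.4 and -1.54 to -0.27. ERBB2, at 0.13, and ERBB3, at 0.35 on 3 Nanopore counts, lay above the upper quartile of theirs. TGFA lay below the lower quartile of its group, -1.25. EREG, of the same group, had no Nanopore count, so its ratio of -3.53, also below that quartile, rests on the pseudocount.

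**Figure D3:**
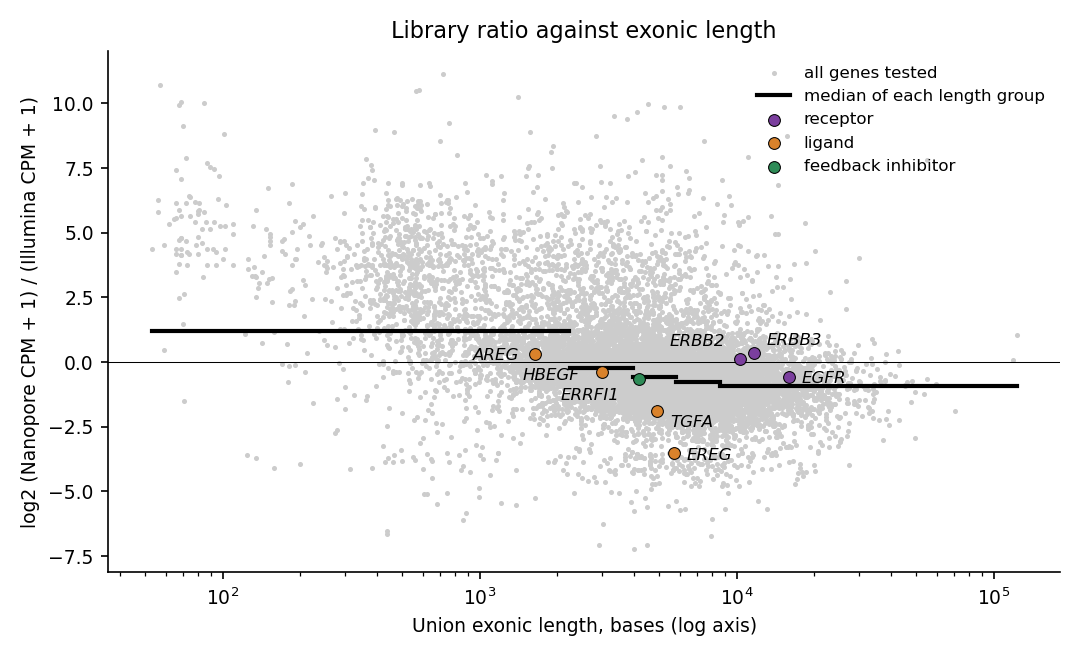
Log2 ratio of Nanopore to Illumina CPM (each plus 1) against union exonic length in bases on a log axis. Grey points are all genes tested with an annotated length, black lines the medians of 5 length groups, and coloured points 8 of the 10 genes. EGFR, ERBB2 and ERBB3 lie above the line of the longest group and AREG below that of the shortest. EREG had no Nanopore count, so its point is placed by the pseudocount.

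With Illumina TPM over union exonic length in place of CPM, the median log2 ratio of all 12350 tested genes with a length shifted by 0.84, from -0.42 to 0.42. On this scale EGFR, ERBB2 and ERBB3 were at least 2-fold higher by Nanopore, 3 of 8 against 33.2% of all genes tested, and TGFA and EREG were at least 2-fold higher by Illumina, 2 of 8 against 12.8%. EREG counts here through the pseudocount alone, since its 4.99 TPM is below the 7.44 CPM that a Nanopore count of 0 allows. By the exact test EGFR and ERBB2 were higher by Nanopore, 2 of 8 against 31.2% of all genes tested, and none was higher by Illumina, against 10.6%.

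The Nanopore level of EGFR was 3.94 times its Illumina TPM (2.93 to 5.18), with an exact binomial adjusted p of 2.37e-14 against a ratio of 1. Its log2 ratio, with 1 added to each level, was 1.95 and lay 1.53 above the median of all genes. The Nanopore level of ERBB2 was 4.18 times its TPM (2.65 to 6.28), with an exact binomial adjusted p of 2.66e-07. Its log2 ratio lay 1.57 above that median. The distance from the median was not tested for either gene. ERBB3 was at 5.74 times (1.18 to 16.8), with an exact binomial adjusted p of 0.0728. The median of the longest length group on this scale was 1.18, so the receptors, at 1.95, 1.99 and 1.88, lay above genes of like length by less than above all genes.

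The ligands and ERRFI1 lay on the other side of the median on this scale. TGFA was 1.48 below it, AREG 0.81, HBEGF 0.67 and ERRFI1 0.45. The median of the length group on this scale was -0.004 for AREG, -0.03 for HBEGF and 0.22 for TGFA and ERRFI1. The log2 ratios of AREG, HBEGF, TGFA and ERRFI1 were -0.39, -0.25, -1.06 and -0.03. Each thus lay below genes of like length by less than below all genes. The Nanopore level of AREG was 0.761 times its Illumina TPM (0.576 to 0.987) by union exonic length and 1.00 times (0.757 to 1.30) by canonical transcript length. For ERRFI1 those ratios were 0.978 (0.655 to 1.41) and 1.27 (0.848 to 1.82). AREG thus lay above EGFR in ratio on the CPM scale and below it per length, as the plot of the ratio on 3 scales shows.

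**Figure D4:**
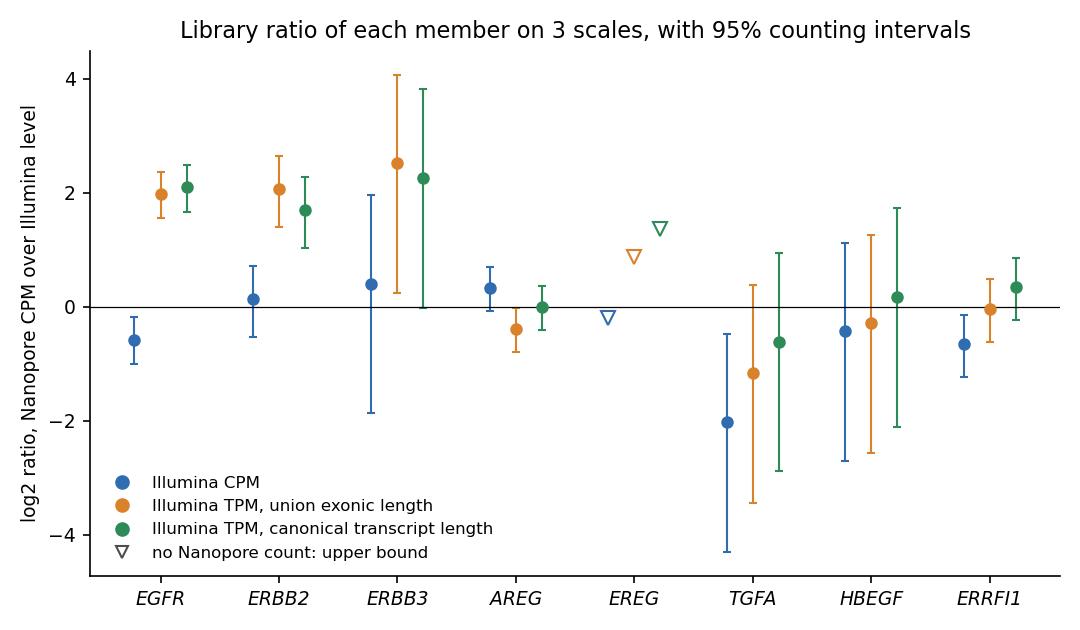
Log2 ratio of Nanopore CPM over the Illumina level of 8 genes, with 95% exact binomial intervals, for Illumina CPM (blue), TPM over union exonic length (orange) and TPM over canonical transcript length (green); triangles are the upper bounds for EREG, which had no Nanopore count. EGFR is at 0.669 times on the CPM scale and at 3.94 and 4.28 times on the TPM scales, and AREG at 1.26, 0.761 and 1.00 times.

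Several of the 10 genes overlap other genes, and the sources used here do not say how reads over such places were counted or whether strand was used. ERBB2 ends within MIEN1, which lies on the opposite strand (chromosome 17, 39728496 to 39730532) and shares 571 exonic bases with it over all transcripts and 149 between the canonical ones. MIEN1 had 20 Nanopore counts, close to the 23 of ERBB2, and 5216 Illumina counts, 52.4% of those of ERBB2. Without strand, reads of ERBB2 and MIEN1 over the shared bases cannot be told apart. PGAP3, which overlaps the start of ERBB2 on the opposite strand with 144 shared exonic bases, had 0 and 1369 counts, and the microRNA gene MIR4728 inside ERBB2 had 0 and 17.

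ERBB3 shares 31 exonic bases with ENSG00000257411, a protein-coding gene on the same strand (56101331 to 56109289) that had 41 Nanopore and 14825 Illumina counts. These were far above the 3 and 1074 of ERBB3 in both libraries. EGFR-AS1, an antisense lncRNA gene within EGFR (chromosome 7, 55179750 to 55188977), shares 186 exonic bases with it and had 4 Nanopore and 94 Illumina counts, 7.84% and 0.259% of those of EGFR. ERRFI1 shares 155 exonic bases with the lncRNA gene ENSG00000284747, which had 1 and 120 counts. AREG, EREG, HBEGF and BTC overlap no annotated gene, and no copy of any of the 10 was found on the alternate contigs of hg38.

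The genes most like EGFR were sought among 920 protein-coding genes with a union exonic length within 20% of its 15941 bases, by distance in log2(CPM + 1) over the 2 libraries. The nearest were DSP, a desmosomal gene, with 53 Nanopore and 35664 Illumina counts (distance 0.06), HDAC2, a histone deacetylase gene, with 46 and 35301 (0.15), and ZNF207, with 46 and 34431 (0.17). Likeness over 2 libraries of the same RNA describes abundance only.

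A list of 58 other genes of the pathway gave the setting of these values. Of these, 51 reached a mean of 5 CPM, with a median log2 ratio of -0.88 (quartiles -1.49 to -0.40), against -0.42 for all genes tested. At least 2-fold higher by Illumina were 23 of the 51, or 45.1%, against 30.2% of all genes tested, and 2, or 3.92%, were at least 2-fold higher by Nanopore, against 19.2%. By the exact test 25, or 49.0%, were higher by Illumina, against 27.2% of all genes tested, and 3, FOS, EGR1 and MAPK3, or 5.88%, higher by Nanopore, against 20.2%. Per union exonic length the median was 0.49, close to the 0.42 of all genes tested, and the shares lay near those of all genes. At 2-fold 8 genes, or 15.7%, were higher by Illumina, against 12.8% of all genes tested, and 20, or 39.2%, by Nanopore, against 33.2%. By the exact test 6, or 11.8%, were higher by Illumina, against 10.6%, and 16, or 31.4%, by Nanopore, against 31.2%. Counts for the groups below are read against the same shares.

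Among the remaining ligands of the family, the neuregulin genes were low. NRG1, NRG2 and NRG4, ligands of ERBB3 or ERBB4, had 1, 3 and 2 Nanopore counts and 655, 722 and 663 Illumina counts, 3.42 to 3.77 CPM. NRG3 had 0 in both, which allows at most 0.0156 CPM by Illumina. The exact test did not call EPGN, with a Nanopore CPM 0.873 times its Illumina CPM (0.399 to 1.66), or NRG2, at 1.98 times (0.407 to 5.80).

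The genes of ligand release were present in both libraries. ADAM10 and ADAM17, metalloproteases that shed the ligand precursors, had 19 and 21 Nanopore counts and 15789 and 6730 Illumina counts. ADAM10 was higher by Illumina by the exact test, with a log2 ratio of -0.79, and ADAM17 had a ratio of 0.56 that did not pass. Per union exonic length the median of the 4 genes turned from -0.63 to 1.21. At 2-fold 0 were then higher by Illumina and 2 by Nanopore, against 12.8% and 33.2% of all genes tested. RHBDF1 and RHBDF2, which encode the inactive rhomboids that assist ADAM17, had 2 and 3 Nanopore and 1820 and 2051 Illumina counts. Illumina CPM of RHBDF1 was 1.91 times its Nanopore CPM (0.529 to 15.8) and that of RHBDF2 1.44 times (0.491 to 6.98).

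Adaptors carry the signal from the receptors. Of 8 genes for adaptors and ubiquitin ligases, 4 were higher by Illumina by the exact test, against 27.2% of all genes tested, and none by Nanopore, against 20.2%. Per union exonic length 1 was at least 2-fold higher by Illumina and 5 by Nanopore, against 12.8% and 33.2% of all genes tested. SHC1 was the highest of the list in Illumina counts, with 133254, and had 120 Nanopore counts and a log2 ratio of -1.22. SOS2, an exchange factor for RAS, had 1 Nanopore and 4704 Illumina counts, an Illumina CPM 9.89 times that of Nanopore (1.78 to 391). CBL, a ubiquitin ligase that marks EGFR for degradation, had 29 and 9964 counts and GAB1, a docking protein, 4 and 1605, with ratios of 0.46 and 0.22 that did not pass.

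Of the 10 genes of the RAS-ERK cascade, 5 were higher by Illumina by the exact test and 1, MAPK3, by Nanopore, against 27.2% and 20.2% of all genes tested. Per union exonic length the median log2 ratio turned from -0.75 to 1.09. At 2-fold 1 gene was then higher by Illumina and 5 by Nanopore, against 12.8% and 33.2% of all genes tested. MAPK3, which encodes the kinase ERK1, had 13 and 2887 counts (Nanopore, then Illumina) and a log2 ratio of 1.05. NRAS was the lowest in ratio, at -1.48, with 13 and 17551 counts. MAP2K2, the kinase upstream of ERK, had 47 and 19481 counts and a ratio of 0.20 that did not pass.

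In the PI3K-AKT and phospholipase group, 6 of 8 were higher by Illumina by the exact test, against 27.2% of all genes tested. Per union exonic length its median log2 ratio turned from -1.21 to 0.81. At 2-fold 0 genes were then higher by Illumina and 4 by Nanopore, against 12.8% and 33.2% of all genes tested. PIK3CA, a catalytic subunit, had 3 Nanopore and 5614 Illumina counts, an Illumina CPM 3.94 times that of Nanopore (1.35 to 19.1). PIK3R2 and PIK3CB, with 16 and 9 Nanopore counts, had ratios of -0.41 and -0.42 that did not pass. Of 3 STAT genes, STAT3 was higher by Illumina, with 13 and 21458 counts and a ratio of -1.76, STAT5B had 11 and 6443 counts and a ratio of -0.29 that did not pass, and STAT5A was under the minimum.

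Feedback inhibitors besides ERRFI1 had a median log2 ratio of -1.34 over the 9 of 11 that passed the minimum, of which 4 were higher by Illumina by the exact test, against 27.2% of all genes tested. SPRY4 and SPRY2, Sprouty genes induced by ERK, had 6 and 2 Nanopore and 15011 and 4974 Illumina counts. The Illumina CPM of SPRY4 was 5.26 times its Nanopore CPM (2.42 to 14.3) and that of SPRY2 5.23 times (1.45 to 43.2). DUSP5 and DUSP6, ERK phosphatases, had 8 and 16 Nanopore counts and ratios of 0.18 and -0.40 that did not pass. Per union exonic length the median of the group was -0.32, below the 0.42 of all genes tested. At 2-fold 2 genes were then higher by Illumina and 0 by Nanopore, against 12.8% and 33.2% of all genes tested.

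Genes that respond to ERK showed the widest range of the 8 groups. By the exact test 4 of 8 were higher by Illumina and 2 by Nanopore, against 27.2% and 20.2% of all genes tested. Per union exonic length 4 and 2 were past 2-fold, against 12.8% and 33.2%. FOS had 268 Nanopore and 24388 Illumina counts, a Nanopore CPM 5.23 times that of Illumina (4.62 to 5.89), and EGR1 had 105 and 25083, 1.99 times (1.63 to 2.41). IER3 had 6 and 23248 counts, an Illumina CPM 8.15 times that of Nanopore (3.74 to 22.2), and has copies on 5 alternate contigs of hg38. ETV5 had 4 and 11229 counts, 5.90 times higher by Illumina (2.31 to 21.7). For FOS and EGR1 the direction was the same per union exonic length, with log2 ratios of 2.61 and 1.20, as it was for IER3 and ETV5, at -3.94 and -1.38, of which that of ETV5 no longer passed the exact test.

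**Figure D5:**
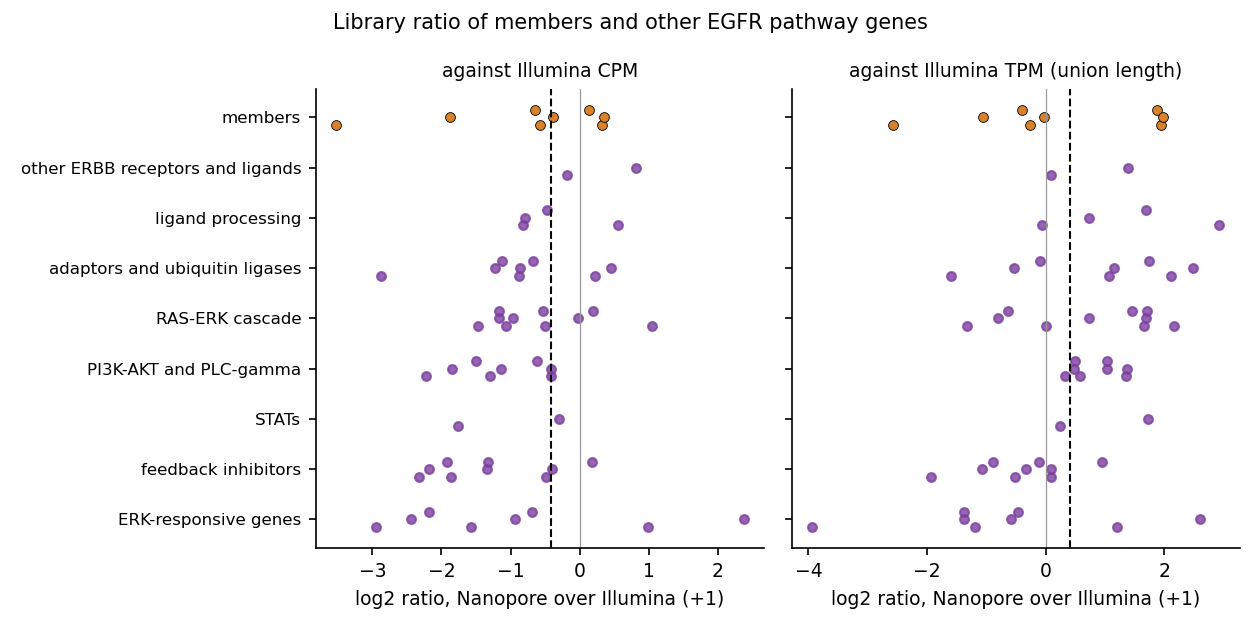
Log2 ratio of Nanopore to Illumina (each plus 1) for the 8 tested members (orange) and 51 other pathway genes by group (purple, 1 point per gene), against Illumina CPM on the left and TPM over union exonic length on the right; dashed lines are the medians of all genes tested, -0.42 and 0.42. FOS is the rightmost point on the left panel, at 2.38, and EREG the leftmost, at -3.53. The points of EREG, which had no Nanopore count, are placed by the pseudocount.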

How the data were processed

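The authors deposited 1 table of whole-number counts per Ensembl gene for each library, without normalization, per the file headers and values. Per the submitters' processing notes, minimap2 2.11-r797, HISAT2 2.1.0, featureCounts and hg38 were used. The annotation, the counting options, the use of strand, and whether reads or fragments were counted are not given in the sources used here. The Nanopore column name carries a suffix that no label explains, so any correction of its reads is unknown. GENCODE release 44 on hg38 named 58207 of 58735 identifiers, and 528 had no entry. From the counts were computed CPM, TPM (union exonic length), ratios with a pseudocount of 1 CPM, exact binomial tests for genes reaching 5 CPM in the mean of both libraries, and counting intervals (Python 3.11.15, scipy 1.17.1). The test was also run on simulated Poisson counts, which held no effect of length and no PCR copies. That run does not show how the test behaves on these libraries. With 1 library per group, neither edgeR's model nor DESeq2 could be fitted. TMM factors came from edgeR 4.0.16. Copies on alternate contigs were sought with minimap2 2.31 (at least 80% of the canonical transcript at no more than 5% divergence). Promoters came from RefSeq and matched 9 of the 10 genes, ERBB3 being the other. The 10 genes, the pathway list and the markers were chosen with earlier results of these data known. Named pathway genes are the 2 highest and 2 lowest ratios of each group, with all remaining ERBB receptors and ligands; 2 genes this rule selects are not reported here by name and stay in the counts of their groups. Neighbours named are those that overlap a member and have a count.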

Additional observations from a re-analysis of the deposited data

How the results depend on the processing

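No paired analysis was possible because each platform has 1 library, and for the same reason no library could be left out. Of 84 alternative values of the counts of genes, 51 were within 1.5 times the main count. The 2 members at least 2-fold higher by Illumina became 1 with a fold of 4 and 1 with EREG set to 3 counts. With a minimum of 20 CPM the count was 0, since TGFA and EREG, with means of 18.8 and 5.26 CPM, were no longer tested. Per length, those 2 fell to 1 with TMM, with median-ratio scaling and with canonical transcript length. A fold of 4 and EREG set to 3 counts also gave 1. A pseudocount of 5 gave 0, and with the minimum of 20 CPM neither gene was tested. The 3 higher by Nanopore per length became 1 with mean transcript length and 0 with a fold of 4. The 3 members higher by Illumina by the exact test became 1 with median-ratio scaling, 0 with TPM by union or canonical length and 1 by mean transcript length, and the 0 higher by Nanopore (no member had an unadjusted p under 0.05 in that direction) became 2 with each TPM.

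For the pathway list, the 23 genes 2-fold higher by Illumina became 8, 5 and 12 with TPM by union, canonical and mean transcript length, and 7 among the 16 tested genes that overlap no other. The 2 higher by Nanopore became 20, 15 and 7 with those TPM scales and 1 with a pseudocount of 5. By the exact test the 25 became 6, 2 and 10, and the 3 became 16, 13 and 8. The median of the list was 0.49 and 0.52 with TPM by union and canonical length, and -0.13 by mean transcript length. The log2 ratio of EGFR changed sign to 1.95, 2.06 and 0.87 with TPM by union, canonical and mean transcript length. Those of AREG became -0.39 (union) and -0.00013 (canonical), that of HBEGF 0.15 and that of ERRFI1 0.34 (both canonical). Division by length is the change in these TPM settings; beyond that the cause was not tested. Nanopore counts of 3 or fewer, as for ERBB3, TGFA, HBEGF, EREG, BTC and EGF, limit what the ratio can show. The settings with EREG at 3 counts and without alternate-contig genes were chosen after seeing the data.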
